A study of Homo sapiens with 6 samples.

Results

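The transcripts of the mitochondrial genome were taken from a table of 58735 genes as every gene on the mitochondrial chromosome, which gave 37 genes: 13 mRNAs, 2 rRNAs and 22 tRNAs. The libraries came from SW1990 cells, an established human line derived from a pancreatic ductal adenocarcinoma. Polyadenylated RNA was sequenced from 3 samples treated with 5 µM EPZ-5676, a small molecule that inhibits the histone methyltransferase DOT1L, and from 3 controls without the inhibitor. The characteristics name these controls untreated, but the protocol states that they received the same volume of DMSO, the solvent. The length of exposure is not in the labels used here. The purpose given for the series was to find genes whose expression changes under the inhibitor. Whether replicates were grown as separate cultures is not said, so p-values reflect the spread among these 6 samples alone, which may be technical.

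Human mitochondrial DNA is a small circle that is transcribed from both strands into long precursors. The heavy-strand precursor carries both rRNAs of the mitochondrial ribosome, most tRNAs and all mRNAs but MT-ND6, which comes from the light strand. The tRNAs lie between the other genes, and their excision releases the mRNAs and rRNAs, most of which then receive a short tail of A residues. MT-ND6 is known as the mRNA that lacks a poly(A) tail. All 13 mRNAs encode subunits of the respiratory chain and of ATP synthase, and their partner subunits are encoded in the nucleus. DOT1L acts on nuclear chromatin, and mitochondrial DNA carries no histones.

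Some features of these genes bear on what the counts can show, and the sequences below were chosen for that (GENCODE 29 transcripts, GRCh38, written 5′ to 3′ as DNA). The first is MT-ATP8, whose last 46 bases, in capitals, are also the first bases of MT-ATP6. It lies at MT:8366-8572 on the plus strand of the record, and 161 of its 207 bases are its own.
MT-ATP8: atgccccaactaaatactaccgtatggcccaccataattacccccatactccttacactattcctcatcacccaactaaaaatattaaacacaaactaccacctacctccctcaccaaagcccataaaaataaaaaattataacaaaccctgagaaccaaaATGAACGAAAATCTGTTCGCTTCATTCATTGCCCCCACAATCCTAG
The second is the junction at MT:3200-3304, plus strand, where the rRNA part of the heavy-strand transcript ends. The last 30 bases of the 16S rRNA gene MT-RNR2 are in lower case and the whole leucine tRNA gene MT-TL1, within which the termination factor MTERF1 is known to bind, is in capitals.
MT-RNR2 end and MT-TL1: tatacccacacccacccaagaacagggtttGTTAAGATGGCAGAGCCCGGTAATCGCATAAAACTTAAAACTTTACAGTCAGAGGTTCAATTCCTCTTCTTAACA
The third is the proline tRNA gene MT-TP at MT:15956-16023 on the minus strand, shown because it was the only tRNA gene with enough reads to be tested.
MT-TP: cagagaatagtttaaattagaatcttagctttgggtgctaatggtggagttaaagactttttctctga
The last 18 bases of 3 mRNAs are given with the stop codon, or the part of it that the DNA encodes, in capitals. They show why a tail is part of the message here, since a tail of A residues completes the codon in MT-ND1 (MT:4245-4262) and MT-CO3 (MT:9973-9990), whereas MT-CO2 (MT:8252-8269) encodes it whole.
MT-ND1 end: cattccccctcaaaccTA
MT-CO3 end: tctattgatgagggtctT
MT-CO2 end: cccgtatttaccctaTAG
By annotated length, 6 of the 13 mRNA genes end in such an incomplete codon and 7 in a complete one. The complete ones are TAA in 3 genes, TAG in 2, AGA in MT-CO1 and AGG in MT-ND6. The last base of MT-ATP6, counted here as complete, is also the first base of MT-CO3. Selection on poly(A) retains tailed mRNAs, while MT-ND6, the tRNAs and the weakly tailed rRNAs are captured in part at most.

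Libraries held 33970420 to 39749648 reads assigned to genes. The keratin gene KRT8 led the epithelial markers with a mean of 3044 CPM (read counts on a per-million scale, with library sizes adjusted by the TMM method), and the 8 epithelial and ductal markers summed to 5455 to 6265 CPM in controls and 6654 to 8476 CPM in treated libraries. Of these 8 genes, 6 were over 1 CPM on average. EPCAM, among these 6, was low at 1.89 ± 0.613 CPM in controls and 1.08 ± 0.376 CPM in treated libraries (SD, n = 3 each). CDH1, which encodes E-cadherin, had 0 reads in every library, and the remaining gene not over 1 CPM is not named here. Leukocyte and endothelial marker lists summed to at most 10.3 and 3.25 CPM. The fibroblast list summed to 83.6 to 93.4 CPM in controls and 93.3 to 99.6 CPM in treated libraries, led by COL1A1. These lists' part in the results below was not tested.

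Mitochondrial transcripts made up 2.36%, 2.77% and 2.71% of all reads in the controls and 2.56%, 2.47% and 2.57% in the treated libraries. The groups overlapped, with means of 2.61% ± 0.221 and 2.53% ± 0.0520 (SD, n = 3 each; exact two-sided permutation test on the log2 share, p = 0.6). With 3 libraries a group that test cannot give a p below 0.1. The 95% Wilson interval of each share, which covers counting error only, reached at most 0.0054 percentage points to either side, so the spread between libraries was far wider than counting error. In libraries made from bulk RNA, fewer cells and less RNA per cell cannot be told apart.

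Within that total the rRNAs and the mRNAs differed. Both rRNAs fell in treated cells under TMM scaling, and none of the 13 mRNAs did. Both rRNA calls were lost when trends with GC content and transcript length were removed (edgeR adjusted p = 0.111 for MT-RNR2 and 0.552 for MT-RNR1). The rRNAs made up 0.579%, 0.537% and 0.465% of all reads in the controls and 0.308%, 0.313% and 0.363% in the treated libraries, so that every treated library lay below every control. The means were 0.527% ± 0.0578 and 0.328% ± 0.0306 (SD, n = 3 each), a 1.61-fold lower share after treatment (exact permutation test, p = 0.1, the smallest this design allows; adjusted p = 0.4 over 12 summed quantities). The mRNAs together made up 1.78%, 2.23% and 2.24% in the controls and 2.25%, 2.16% and 2.204% in the treated libraries. Here control replicate 1 was the low sample, the groups overlapped and the exact permutation p was 0.8.

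MT-RNR2 (ENSG00000210082, MT:1671-3229) encodes the 16S rRNA of the large mitochondrial ribosomal subunit. Its level was 4746, 4494 and 3735 CPM in control cells and 2731, 2535 and 3021 CPM with EPZ-5676. All treated libraries were below all controls, with a gap between the groups. Its log2 fold change was -0.65 ± 0.11 (SE; adjusted p = 0.000423 by the quasi-likelihood test of edgeR, adjusted over 15496 genes by the Benjamini-Hochberg method). MT-RNR1 (ENSG00000211459, MT:648-1601), the 12S rRNA of the small subunit, was at 807, 889.9 and 695 CPM in control cells and 632, 582 and 626 CPM with EPZ-5676. Again no treated library reached the lowest control, and the log2 fold change was -0.38 ± 0.11 (edgeR adjusted p = 0.00967). Of all 15496 genes tested, 18.7% were called lower, and 24.2% had every treated library below every control. Without treated replicate 2 the call of MT-RNR1 was lost (edgeR adjusted p = 0.0502), while that of MT-RNR2 held with any library left out under TMM scaling (adjusted p up to 0.0046). In those analyses the share of all genes called lower was 11%, 19.8% and 12.3% without control replicates 1, 2 and 3, and 11.8%, 15.9% and 14.4% without treated replicates 1, 2 and 3.

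The estimated fall was larger for the 16S than for the 12S rRNA. Per kilobase, reads of MT-RNR1 were 0.278, 0.324 and 0.304 of those of MT-RNR2 in the controls and 0.378, 0.375 and 0.339 in the treated libraries. The groups did not overlap in this ratio, which was not tested. Few reads were assigned to the nuclear genes named for the 16S rRNA sequence: the 13 MTRNR2L genes had 17 to 34 in all per library. Reads that match both them and MT-RNR2 may have been counted for neither, which was not tested.

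Reads of both rRNAs divided by reads of all 13 mRNAs compare transcripts within the organelle and do not depend on how libraries are scaled. The ratio was 0.326, 0.241 and 0.207 in the controls and 0.137, 0.145 and 0.165 in the treated libraries. Every treated library was below every control, and control replicate 1 was the highest. The means were 0.258 ± 0.0609 and 0.149 ± 0.0143 (SD, n = 3 each), a difference of -0.77 on the log2 scale or 1.71-fold (exact permutation test, p = 0.1; adjusted p = 0.4). Without control replicate 1 the difference was -0.59.

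**Figure D1:**
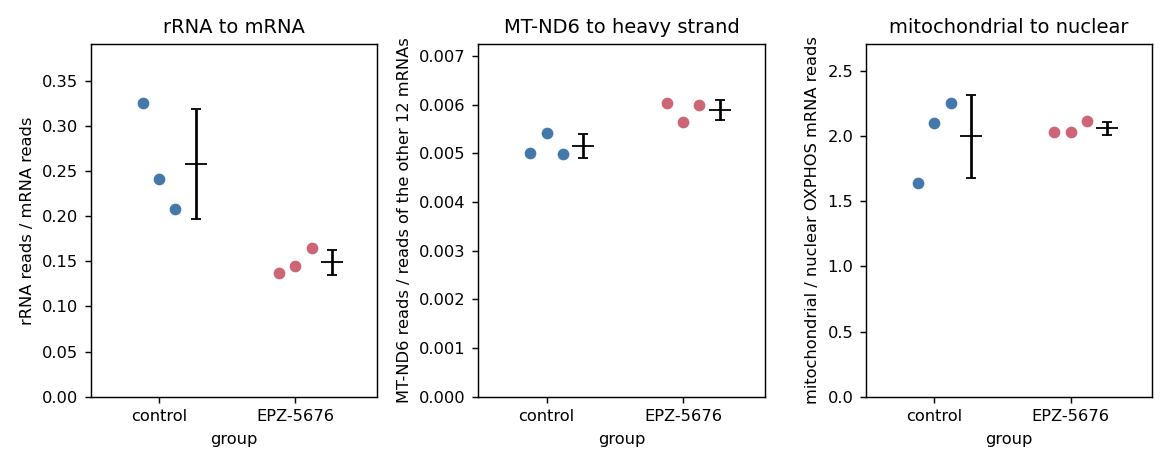
Ratios of summed reads in each of 6 libraries (points), with the group mean ± SD beside them (n = 3 each); axes start at 0. The rRNA to mRNA ratio of the 3 treated libraries (0.137 to 0.165) lies below that of all controls (0.207 to 0.326), the MT-ND6 ratio of the treated libraries lies above the controls, and the mitochondrial to nuclear ratio overlaps.

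Other RNAs that normally lack a poly(A) tail were also counted. How reads that match several genes were counted is not known here. These counts therefore do not measure how much tailless RNA the selection let through. Nuclear rRNA genes had 3 to 11 reads per library. The snRNA genes were at 6.40 to 7.45 RPM (reads on a per-million scale of the plain library total) in the controls and 3.46 to 4.92 in the treated libraries, with no overlap. SnoRNA and scaRNA genes overlapped, at 12.7 to 15.2 and 13.6 to 15.5 RPM. The signal recognition particle, 7SK, RMRP and RPPH1 RNAs were at 9.14 to 15.1 RPM in the controls and 21.7 to 32.6 in the treated libraries. The classes thus did not share a direction, and the part of tail selection in the lower rRNA reads was not tested.

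All 13 mRNAs passed the filter on low counts, and 4 were called higher in treated cells: MT-ND1, MT-CO2, MT-ND6 and MT-ATP8. The other 9 did not pass, and none was called lower. Of all genes tested, 15% were called higher. The median log2 fold change of the 13 mRNAs was 0.21, against -0.05 over all genes tested, and all 13 estimates were above 0. Without control replicate 1 the median was 0.07, and the estimates of MT-ND2 (-0.0030) and MT-ND3 (-0.10) were below 0. With trends of GC content and length removed the median was 0.55. These calls depended on single libraries: none was called without control replicate 1 (where 10.5% of all genes were) or without treated replicate 1 (8.43%). Only MT-ND1 was called without control replicate 3 (9.95%) or treated replicate 3 (11%), 3 mRNAs were when treated replicate 2 was left out (12.5%), and 9 when control replicate 2 was (17.4%).

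MT-ND1 (ENSG00000198888, MT:3307-4262), the first mRNA after the rRNAs on the heavy-strand transcript, encodes a membrane subunit of complex I, the NADH dehydrogenase. It was at 445, 751 and 683 CPM in control cells and 1019, 784 and 816 CPM with EPZ-5676. The groups did not overlap, with control replicate 1 far below the rest, and the log2 fold change was 0.48 ± 0.15 (edgeR adjusted p = 0.0169). The call was lost without control replicate 1 or treated replicate 1 (edgeR adjusted p up to 0.13). MT-CO2 (ENSG00000198712, MT:7586-8269), which encodes the cytochrome c binding subunit of complex IV, was at 1857, 2745 and 2545 CPM in control cells and 3231, 2880.2 and 2914 CPM with EPZ-5676. Its log2 fold change was 0.34 ± 0.12 (edgeR adjusted p = 0.0413), and the call held only without control replicate 2 when libraries were left out in turn. Between them, 4 of the 13 mRNAs had every treated library above every control (MT-ND1, MT-CO2, MT-ND5 and MT-ND6), where 21.8% of all genes did.

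MT-ND6 (ENSG00000198695, MT:14149-14673, minus strand) is the only mRNA of the light strand and encodes a complex I subunit. It was at 85.1, 121 and 106 CPM in control cells and 147, 121 and 132 CPM with EPZ-5676. The highest control and the lowest treated library were almost level (120.67 and 120.90 CPM), and the log2 fold change was 0.36 ± 0.12 (edgeR adjusted p = 0.0247). Relative to the 12 heavy-strand mRNAs, MT-ND6 reads were 0.00501, 0.00542 and 0.00499 in the controls and 0.00604, 0.00565 and 0.00598 in the treated libraries, a 1.15-fold higher mean with no overlap (exact permutation test, p = 0.1; adjusted p = 0.4). The difference was 0.17 to 0.24 on the log2 scale whichever library was left out. The libraries mark strand, but whether the counting used it is not known here. Reads of MT-ND6 therefore cannot be told apart from antisense reads of the heavy-strand transcript, and the same holds for MT-TP. As an mRNA without a poly(A) tail, MT-ND6 also reaches these libraries only in part, and whether that share differed between groups was not tested.

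The other complex I mRNAs did not pass. MT-ND5, the longest at 1812 bases, was at 338, 467 and 478 CPM in control cells and 529, 481 and 531 CPM with EPZ-5676 (0.26 ± 0.12; edgeR adjusted p = 0.0885). Its groups were separated by a small gap. MT-ND2, MT-ND3, MT-ND4 and MT-ND4L had log2 fold changes of 0.10 ± 0.11, 0.09 ± 0.16, 0.10 ± 0.11 and 0.14 ± 0.10. Of these, MT-ND3 varied most among the controls, at 415, 779.5 and 556 CPM, and the treated libraries (681, 599.7 and 578 CPM) lay within that range.

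Per kilobase, the 3 mRNAs of complex IV had the most reads of the 13. MT-CO1, which encodes its catalytic subunit, was at 5889, 6596 and 6446 CPM in control cells and 7014, 6255 and 6441 CPM with EPZ-5676. The groups overlapped, and the log2 fold change was 0.06 ± 0.11 (edgeR adjusted p = 0.708). MT-CO3, another core subunit, was at 2482, 3611 and 3192 CPM in control cells and 3837, 3271 and 3453 CPM with EPZ-5676 (0.19 ± 0.12; edgeR adjusted p = 0.26). MT-CYB, the only mitochondrially encoded subunit of complex III, was at 952, 1445 and 1356 CPM in control cells and 1623, 1374 and 1429 CPM with EPZ-5676 (0.24 ± 0.13; edgeR adjusted p = 0.16). In each of these 3 genes the lowest value was that of control replicate 1.

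The ATP synthase genes MT-ATP6 and MT-ATP8 share 1 bicistronic mRNA. MT-ATP6 was at 1324, 1931 and 1829 CPM in control cells and 2208, 1799 and 1880.3 CPM with EPZ-5676, and did not pass (0.21 ± 0.13; edgeR adjusted p = 0.208). MT-ATP8 (ENSG00000228253) was at 9.71, 11.0 and 9.22 CPM in control cells and 17.3, 9.78 and 15.7 CPM with EPZ-5676. It was called higher (0.51 ± 0.20; edgeR adjusted p = 0.0472), although treated replicate 2 lay within the range of the controls. The call was lost with limma-voom (adjusted p = 0.0741), and without control replicate 1 or 3 or treated replicate 1 or 3 (edgeR adjusted p up to 0.239). Per kilobase MT-ATP6 had 51.8 ± 9.54 times the reads of MT-ATP8 in the controls and 43.8 ± 10.6 times in the treated libraries (SD, n = 3 each), although both lie on the same message. The groups overlapped in this ratio. MT-ND4L and MT-ND4, the other bicistronic pair, share 7 bases, and MT-ND4 had 3.09 ± 0.134 times the reads of MT-ND4L per kilobase in the controls and 3.01 ± 0.0793 times in the treated libraries.

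**Figure D2:**
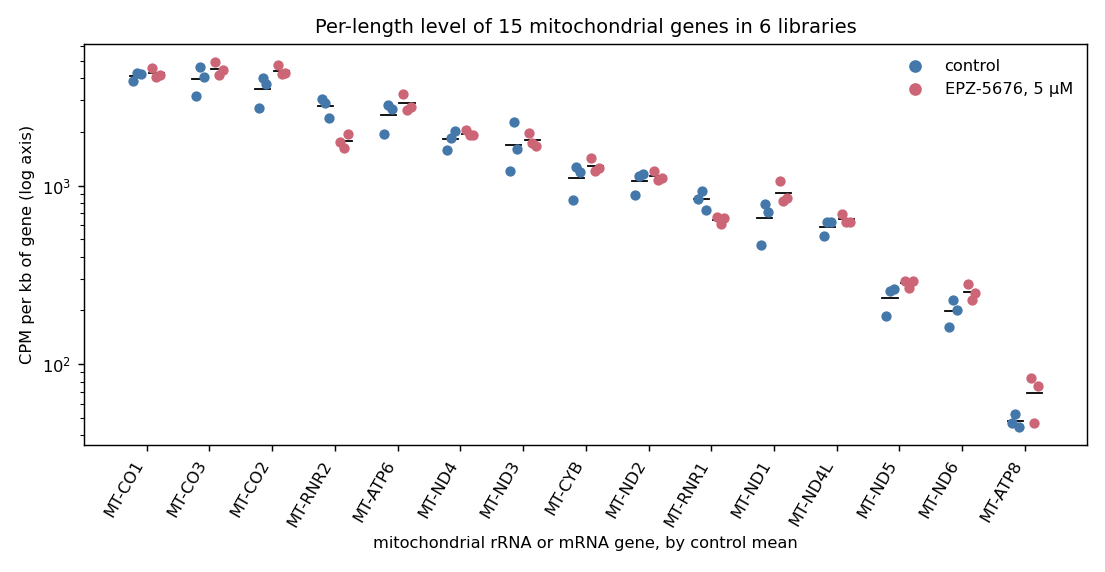
Level of the 2 rRNA and 13 mRNA genes in CPM per kilobase of gene (log axis), one point per library, with a bar at each group mean (n = 3 each), ordered by the control mean. MT-CO1, MT-CO3 and MT-CO2 lead and MT-ATP8 is lowest; MT-RNR2 and MT-RNR1 are the genes whose treated points all lie below the controls.

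On the per-length scale the control means ran from 4092 ± 242 CPM per kilobase for MT-CO1 to 48.1 ± 4.34 for MT-ATP8 (SD, n = 3 each). MT-CO3 (3948 ± 728) and MT-CO2 (3483 ± 681) came next and did not differ from MT-CO1 beyond their spread. MT-RNR2 (2774 ± 338), MT-ATP6 (2488 ± 477), MT-ND4 (1816 ± 215) and MT-ND3 (1687 ± 531) followed, each within the spread of a neighbour. MT-CYB (1096 ± 230) and MT-ND2 (1056 ± 148) were level. MT-RNR1 (836 ± 102), MT-ND1 (655 ± 168) and MT-ND4L (588 ± 59.1) came below them. MT-ND5 (236 ± 42.8) and MT-ND6 (198 ± 34.1) were close to each other and well below MT-ND4L. In treated cells MT-RNR2 moved from place 4 to place 7 of the 15 and MT-RNR1 from place 10 to place 12. Genes of 1 precursor thus had very different reads per kilobase, which did not follow their order along it. These values cannot be read as RNA levels, since MT-ATP6 (2488) and MT-ATP8 (48.1) differ although they share 1 mRNA.

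No change in the makeup of the mitochondrial mRNA pool passed the test. MT-CO1 took 34.5%, 29.5% and 30.2% of mRNA reads in the controls and 28.5%, 29.1% and 29.1% in the treated libraries, all below the controls. MT-CO2 took 10.9% to 12.3% in the controls and 13.2% to 13.4% in the treated libraries, MT-ND1 2.61% to 3.36% and 3.64% to 4.15%, and MT-ND6 0.496% to 0.540% and 0.562% to 0.600%, each without overlap. MT-ND2 was lower in all treated libraries by a very small gap, at 5.234% to 5.653% in the controls and 5.105% to 5.230% after treatment. The share of all genes without overlap on this scale is not given here. MT-CO3 overlapped, at 14.5% to 16.1% in the controls and 15.2% to 15.6% in the treated libraries. With the mRNA total as library size, none of the 13 mRNAs had an edgeR adjusted p under 0.05. That fit took its dispersion trend and its adjustment from all genes tested, nuclear ones included, and not from the 13 alone. MT-ND1, the nearest, had a log2 fold change of 0.32 ± 0.12 on this scale (unadjusted p = 0.0192, adjusted p = 0.0806), and it was the only one with an unadjusted p under 0.05. On the same scale MT-RNR2 was lower by a log2 fold change of -0.84 ± 0.16 (edgeR adjusted p = 0.0146) and MT-RNR1 by -0.56 ± 0.13 (adjusted p = 0.0218).

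Of the 22 tRNA genes, 59 to 75 bases long, 19 had no read in any library. A count of 0 allows up to 3 reads, or at most 0.0883 RPM in the smallest library, and with poly(A) selection it says nothing of the tRNAs' own level. MT-TF had 0 to 7 reads per library and MT-TY had 10 reads in treated replicate 1 and 0 elsewhere. MT-TP stood apart with 855, 944 and 908 reads in the controls and 969, 738 and 1089 in the treated libraries. Its groups overlapped and its log2 fold change was 0.13 ± 0.15 (edgeR adjusted p = 0.546). All tRNA reads divided by mRNA reads gave 0.00121 ± 0.0000563 in the controls and 0.00117 ± 0.000167 in the treated libraries (SD, n = 3 each; exact permutation test, p = 0.9).

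Copies of mitochondrial DNA in the nucleus can take reads from these genes. The table holds 396 such pseudogenes, of which 361 had no read in any library and 3, all on chromosome 1, had a mean of at least 100 reads. MTATP6P1 (1:633696-634376) had 13472 to 16960 reads, equal to 21.8% to 25.6% of the reads of MT-ATP6, with which it shares 671 of 681 bases. MTND2P28 (1:629640-630683) had 1525 to 2481 reads and is identical to MT-ND2 at 98.4% of its bases, with a longest identical run of 266 bases. MTCO1P12 (1:631074-632616) had 602 to 714 reads, at most 0.316% of those of MT-CO1, at 98.7% identity. None of the 3 passed the test. MTATP8P1, which shares 202 of the 207 bases of MT-ATP8, had 0 reads. The reads assigned to these pseudogenes do not bound the uncertainty, since reads that match both copies may have been counted for neither. How such reads were counted is not known here. Adding the reads of the 3 pseudogenes to MT-ATP6, MT-ND2 and MT-CO1 was a step chosen after seeing the data. It left the same 4 genes called higher and the same 2 lower, but cannot restore reads counted for neither copy.

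Many calls in these libraries depended on whether trends with the GC content of transcripts were removed. The 13 mRNAs hold 39.6% to 47.7% G or C, above 12.8% to 44.4% of the tested genes, and the rRNAs hold 42.8% and 45.5%, so both kinds lie in the same lower part of the range. An offset that removes smooth trends of GC content and transcript length from each library raised all of them. With it, 9 mRNAs and MT-TP were called higher and no mitochondrial gene lower (5.41% of all genes were called higher and 5.57% lower). MT-RNR2 went to -0.24 ± 0.09 (edgeR adjusted p = 0.111) and MT-RNR1 to -0.10 ± 0.09 (adjusted p = 0.552). MT-ND4L (0.55 ± 0.10; adjusted p = 0.000935) and MT-ATP8 (1.06 ± 0.19; adjusted p = 0.000783) passed, as did MT-ND4 (0.44; adjusted p = 0.00618), and these 3 still passed with any library left out beside the offset (adjusted p up to 0.0124, 0.0124 and 0.0442), while MT-ND1 was not called (0.63 ± 0.23; adjusted p = 0.167). The offset is learned almost wholly from nuclear genes, most of which are longer, and whether it applies to mitochondrial transcripts was not tested.

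The gap between rRNAs and mRNAs was common to all of these analyses. MT-RNR2 stood below the median of the 13 mRNAs by -0.86 on the log2 scale, and by -0.79 with the offset. Over 26 alternative settings the gap ran from -1.01 to -0.60 for MT-RNR2 and from -0.80 to -0.43 for MT-RNR1, and in each of them all 13 mRNAs had a higher log2 fold change than either rRNA. Settings that only rescale libraries shift all genes of a library alike, so they could hardly move this gap. All settings drew on the same 6 libraries and are not independent evidence.

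**Figure D3:**
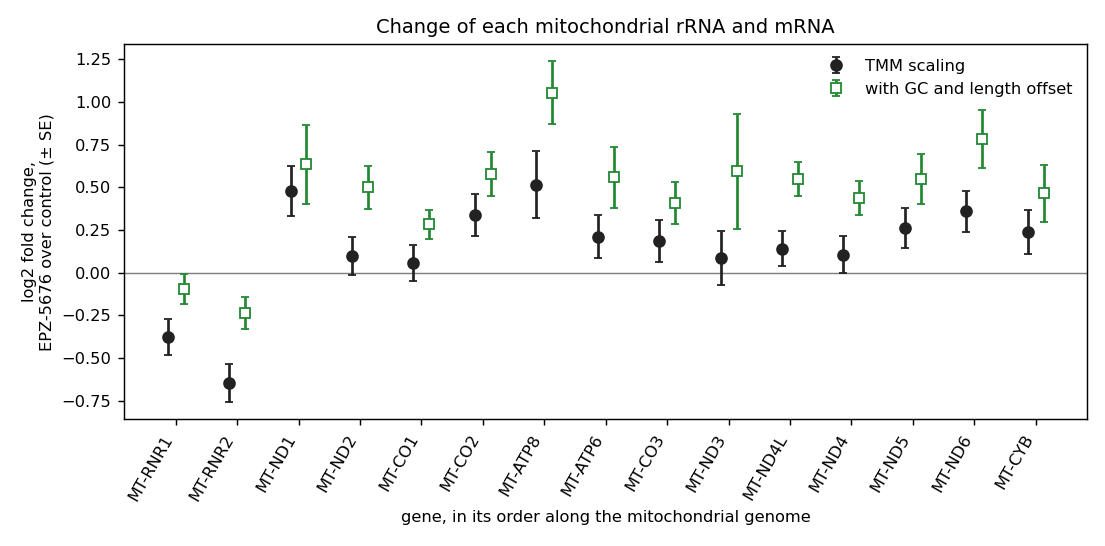
Log2 fold change of each rRNA and mRNA gene (EPZ-5676 over control, ± SE from edgeR, 3 libraries a group), in genome order, with TMM scaling (filled) and with the GC and length offset (open). Both rRNAs (-0.38 and -0.65) lie below 0 and below all 13 mRNAs under either scaling, and the offset moves rRNAs and mRNAs upwards together.

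**Figure D4:**
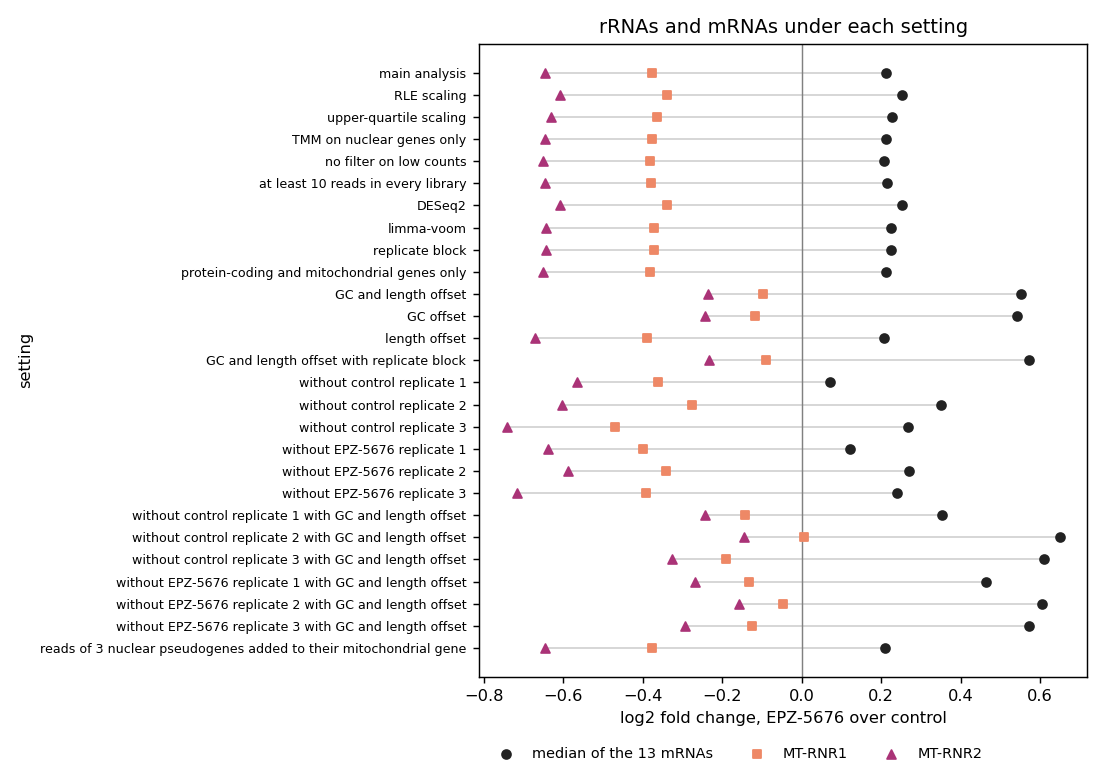
Log2 fold change of MT-RNR1 (squares), MT-RNR2 (triangles) and the median of the 13 mRNAs (circles) under the main analysis and 26 alternatives, 1 line each. Positions relative to 0 move with the GC offset, while the distance of MT-RNR2 from the mRNA median stays between -1.01 and -0.60. Rescaling of libraries alone could hardly move that distance.

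Mitochondrially encoded subunits work beside nuclear ones in 4 complexes. The 75 nuclear genes set against the 13 mRNAs were picked by their symbols, so a gene that is not a subunit may be among them. The ratio of mRNA reads to theirs was 1.64, 2.09 and 2.25 in the controls and 2.03, 2.03 and 2.12 in the treated libraries. The groups overlapped fully (exact permutation test, p = 0.9). By complex, the treated means were 1.92 ± 0.0523 for complex I, 0.594 ± 0.0158 for complex III, 6.20 ± 0.246 for complex IV and 0.609 ± 0.0312 for ATP synthase, against control means of 1.96 ± 0.362, 0.571 ± 0.127, 5.93 ± 0.833 and 0.539 ± 0.113 (SD, n = 3 each), and the groups overlapped in each. Of the 75 nuclear genes, 13 were called higher and 9 lower, with a median log2 fold change of 0.09, where 15% and 18.7% of all genes were called. After the offset 15 were higher and 2 lower, where 5.41% and 5.57% of all genes were.

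A list of nuclear genes that copy, transcribe, process and translate the mitochondrial genome was also examined. Of 70 symbols listed, 67 were in the table, and the rest are newer names of genes present there under older ones. All 67 were tested: 10 were higher, 18 lower and 39 did not pass, where 15% of all genes were higher and 18.7% lower. The list's median log2 fold change was -0.25, against -0.05 over all genes tested. LRPPRC, which stabilises mitochondrial mRNAs and aids their polyadenylation, was at 96.7, 70.7 and 82.4 CPM in control cells and 38.3, 56.3 and 51.8 CPM with EPZ-5676 (-0.77 ± 0.14; edgeR adjusted p = 0.000455). All treated libraries were below the controls, and LRPPRC was also called lower with the offset, at a smaller size (-0.35, adjusted p = 0.0189). Beside the offset that call was lost without control replicate 1 or treated replicate 1 or 3 (adjusted p up to 0.131).

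The mitochondrial translation factors GFM2 (-0.85 ± 0.16; edgeR adjusted p = 0.000643), which recycles ribosomes, and GFM1 (-0.81 ± 0.15; 0.000756), which moves them along the message, fell too, as did the coactivator of mitochondrial biogenesis PPARGC1A, from 4.93 ± 0.504 to 2.02 ± 0.354 CPM (-1.29 ± 0.27; 0.00137). With the offset all 3 estimates were smaller: GFM2 (-0.46, adjusted p = 0.0227) and PPARGC1A (-0.80, 0.039) still passed and GFM1 (-0.33, 0.0854) did not. Beside the offset PPARGC1A was lost with any library left out (adjusted p 0.0562 to 0.128), and GFM2 without control replicate 1 or treated replicate 1 or 2 (up to 0.119). The genes with the smallest p among those that rose were the RNA helicase DHX30 (0.48 ± 0.10; edgeR adjusted p = 0.00174), which acts in mitochondrial ribosome assembly, POLRMT (0.50 ± 0.11), the cytochrome oxidase translation activator TACO1 (0.44 ± 0.11; 0.00446) and the tRNA modifier GTPBP3 (0.43 ± 0.11; 0.0045). POLRMT, the mitochondrial RNA polymerase, was at 154, 198 and 187 CPM in control cells and 281, 228 and 255 CPM with EPZ-5676 (edgeR adjusted p = 0.00205), with no overlap. The offset took it to 0.05 (adjusted p = 0.769), and of the other 3 only TACO1 was still called (0.29, adjusted p = 0.0379), a call that held in 1 of 6 analyses with a library left out beside the offset (adjusted p up to 0.172).

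TFAM, which packages mitochondrial DNA and starts its transcription, was at 28.97, 17.8 and 19.0 CPM in control cells and 16.4, 15.5 and 15.4 CPM with EPZ-5676. It was called lower (-0.47 ± 0.17; edgeR adjusted p = 0.0399), control replicate 1 was far above the rest, and without that library the call was lost, as it was without any 1 treated library. It was also lost with RLE scaling (adjusted p = 0.0510), DESeq2 (0.0513) and limma-voom (0.0542). With the offset the sign turned (0.09, adjusted p = 0.766). TFB2M, the second initiation factor of mitochondrial transcription, did not pass (-0.39 ± 0.19; edgeR adjusted p = 0.131). After the offset 4 genes of the list were higher and 4 lower, with a median of 0.0032, against 5.41% and 5.57% of all genes called.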

How the data were processed

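Per the labels' protocols, TRIzol RNA was enriched on oligo(dT) beads and made into dUTP-marked libraries. Per the submitters' processing notes, HISAT2 2.2.1 was the aligner and GRCh38 (hg38) the build. The sources used here do not name the counter, its strand setting or its annotation. The deposited table has raw read counts per gene, without normalization, and a gene length in bases, a deposited value with no other unit. All 37 mitochondrial genes, and all 58735 in total, had the coordinates of GENCODE 29, the source of sequences and GC content.

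The test was that of edgeR 4.0.16, run in R 4.3.3 (filterByExpr, minimum count 10; TMM; robust two-sided quasi-likelihood test; Benjamini-Hochberg over 15496 genes, threshold 0.05). SE is the log2 fold change divided by the square root of F. The GC and length offset used natural splines (5 degrees of freedom per property) fitted per library to log2 CPM (prior count 2). Summed quantities were compared by exact permutation tests. In simulated data over 15164 genes, 69 of 100 genes changed 2-fold and 33 of 100 changed 1.5-fold were recovered, with 9 false calls. Far fewer genes were changed there than were called here, and they were drawn at random from all levels. These rates therefore need not hold for the mitochondrial genes. Alternatives were RLE and upper-quartile scaling, TMM on nuclear genes, other filters, DESeq2 1.42.0, limma-voom (limma 3.58.1), a replicate block, offsets and libraries left out; leaving out a library beside the offset and adding pseudogene reads were chosen after seeing the data. All 13 mRNAs, both rRNAs and tested tRNAs were named whatever their result; of 67 machinery genes, POLRMT, TFAM, TFB2M, LRPPRC and the 4 called genes with the smallest p in each direction. Members and lists were chosen with earlier results of these data known.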

Additional observations from a re-analysis of the deposited data

How the results depend on the processing

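The 2 rRNAs stayed lower under scaling, filter, tool and replicate block alternatives, but with the GC offset, the GC and length offset, and that offset with the replicate block 0 mitochondrial genes were lower. Leaving out 1 library gave 1 to 2 lower and 0 to 9 higher genes, and beside the offset 0 to 1 and 4 to 13. Of all 15992 to 16021 genes tested there, 1753 to 3167 were lower and 1350 to 2780 higher. Beside the offset 513 to 816 were lower and 398 to 848 higher. These counts over all genes also apply to the machinery genes with a library left out, given below. Against 4 in the main test, 1 mitochondrial gene was higher with the replicate block, 7 with the GC offset and 10 with the GC and length offset, while of all 15496 genes 2326 were higher in the main test and 1677, 761 and 838 under these settings. Same-numbered libraries did not deviate together (correlations of -0.11, -0.09 and 0.05), so the block rests on numbers alone. Of the machinery genes, 10 were higher and 18 lower; with the GC offset 2 and 3 were, with the GC and length offset 4 and 4, with the block added 4 and 2 (all genes: 2326 and 2899, then 761 and 730, 838 and 863, 688 and 685), and with 1 library left out 9 to 12 and 11 to 20 (0 to 3 and 0 to 4 beside the offset). TFAM turned to 0.090 with the GC and length offset, 0.10 with the GC offset and 0.10 with the block added, and to positive values with it and without control replicates 1 or 2 or treated replicates 2 or 3 (0.26, 0.053, 0.15 and 0.15). With the block alone PPARGC1A, GFM2 and LRPPRC stayed lower, while TFAM (adjusted p = 0.0823) did not pass; with the offset and block PPARGC1A (0.0627) did not. MT-RNR1 was at 0.0061 with the offset and without control replicate 2. The log2 difference of the mitochondrial share was -0.04, and 0.045 with the TMM-scaled denominator; with a library left out it ran from -0.11 to 0.0030, that of the mRNA share from -0.021 to 0.15, of the tRNA share from -0.054 to 0.17, of the tRNA to mRNA ratio from -0.13 to 0.068, and of the mitochondrial to nuclear ratio from -0.078 to 0.15, so none of these 5 has a settled sign. That of the rRNA to mRNA ratio ran from -0.92 to -0.59. The spread of log2 changes among mRNA shares was 0.44, and 0.37 to 0.63 with a library left out. The cause of these shifts was not tested. All mRNAs and rRNAs had at least 343 reads in every library, whereas 19 tRNA genes had no reads, and the part of depth in this was not tested.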
